A study of Mus musculus with 6 samples.

Results

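Ribosomal protein pseudogenes are copies of the genes for the proteins of the ribosome that were inserted elsewhere in the genome. Here they were taken as the genes of the expression table whose symbol begins with Rpl or Rps and contains -ps followed by a number, with a value above 0 in at least 1 of the 6 samples. The table listed 210 such pseudogenes among its 38739 genes. Of these, 150 had a value above 0 and are described here, while 60 were listed at 0 in every sample. The samples were neutrophils from the peritoneum of cGAS knockout mice of the strain given as C57B/L6, so both groups lacked cGAS, the cytosolic DNA sensor that makes cGAMP. The 3 untreated samples were kept in medium and the 3 LPS samples received 500 ng/mL LPS (E. coli 026:B6) by the sample labels, each for 2 hours, while the methods of the study give a lower dose. No wild-type sample was analysed here. Strand-specific libraries were sequenced as paired-end reads.

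Values are TPM, the share of all transcript molecules that a transcript takes after correction for its length, which were averaged per gene and scaled by 1 factor per sample. They are called scaled TPM below. The number of reads per sample is unknown, so precision can be judged only from how far the 3 samples within each group lie apart. The labels do not say whether the 3 samples of a group came from separate mice or cultures, and the p-values then measure only the spread between these samples, which may be technical. In such bulk samples, fewer cells of a type and less RNA per cell cannot be told apart.

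Each ribosome joins a small subunit, whose proteins carry the prefix Rps, with a large subunit, whose proteins carry the prefix Rpl. The messenger RNAs of these proteins are short and abundant, and in mammals many of them were reverse transcribed and inserted at new sites. Such a processed pseudogene lacks introns, usually has no promoter of its own and often collects mutations that break the reading frame. The gene it was copied from is called its parent here, and was taken as the part of the symbol before -ps. A read that falls in a stretch shared by a pseudogene and its parent cannot be assigned to either by its sequence alone.

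The 150 pseudogenes came from 50 parent genes. The GENCODE M39 annotation gave 126 as processed pseudogenes, 22 as transcribed processed pseudogenes and 2, Rpl10-ps3 and Rplp2-ps1, as protein coding. Rpsa and Rpl31 had the most copies among the 150, 8 each, and 15 parents had 1 copy among them. The annotation names 319 such pseudogenes over all chromosomes, so these are not all copies of a parent. The parent was in the table for 103 pseudogenes (37 parents) and was not among the genes analysed here for 47 pseudogenes (13 parents). The absent parents were Rpl10, Rpl10a, Rpl15, Rpl17, Rpl30, Rpl35a, Rpl36, Rpl36a, Rps2, Rps10, Rps18, Rps23 and Rps24. The genes of the table that matched the annotation by name lay on chromosomes 1 to 12, on chromosome 13 up to position 74611548 and, for 1 gene, on X. Of the absent parents, 5 lie on chromosome 17, 2 on chromosome 14, 2 on X, 1 each on chromosomes 15, 16 and 18, and Rps23 on chromosome 13 beyond that position (91071077 to 91085586). Another annotated gene overlapped 97 of the pseudogenes, with an exon in 32 and only with introns in 65.

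How far these copies differ from their parents decides what a read can tell, so sequences of the copies that carry the results are given first, from the reference genome GRCm39. Each is set beside the same stretch of the parent's coding sequence, 5′ to 3′, in lower case. Capitals mark bases of a copy that differ from the parent, and bases of the parent that differ from any copy shown. The first block shows Rpl35a-ps2 (chr1:181069685-181069774, minus strand), Rpl35a-ps4 (chr2:108705403-108705492, minus strand) and Rpl35a-ps6 (chr5:123393676-123393765, minus strand) against positions 112 to 201 of the coding sequence of Rpl35a, because these 3 copies have the same transcript sequence. They differ from the parent in 1 base of the whole coding sequence.
Rpl35a-ps2: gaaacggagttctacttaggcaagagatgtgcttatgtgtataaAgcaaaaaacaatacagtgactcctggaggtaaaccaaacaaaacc
Rpl35a-ps4: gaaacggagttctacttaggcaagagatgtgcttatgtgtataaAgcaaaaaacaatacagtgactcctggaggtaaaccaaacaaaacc
Rpl35a-ps6: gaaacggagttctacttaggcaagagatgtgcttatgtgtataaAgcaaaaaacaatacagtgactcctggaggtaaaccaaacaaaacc
Rpl35a: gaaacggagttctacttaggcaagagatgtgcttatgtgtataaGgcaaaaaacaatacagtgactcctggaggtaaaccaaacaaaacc

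Rps10-ps1 (chr3:95529754-95529927, plus strand) is shown against positions 166 to 339 of the coding sequence of Rps10 because it had the highest mean of all 150. It differs from Rps10 in 6 bases along the aligned coding sequence, 3 of them in this stretch.
Rps10-ps1: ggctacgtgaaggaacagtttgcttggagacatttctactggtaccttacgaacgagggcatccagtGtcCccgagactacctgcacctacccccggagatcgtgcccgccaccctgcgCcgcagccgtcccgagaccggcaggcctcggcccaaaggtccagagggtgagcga
Rps10: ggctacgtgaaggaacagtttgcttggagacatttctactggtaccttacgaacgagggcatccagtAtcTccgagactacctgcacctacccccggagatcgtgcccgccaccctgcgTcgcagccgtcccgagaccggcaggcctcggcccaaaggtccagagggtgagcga

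Rps18-ps5 (chr13:28441922-28442062, plus strand), Rps18-ps3 (chr8:107989437-107989577, minus strand) and Rps18-ps1 (chr4:71288990-71289130, minus strand) show how copies of 1 parent differ among themselves, at positions 304 to 444 of the coding sequence. They carry 3, 3 and 8 differences from Rps18 along the coding sequence.
Rps18-ps5: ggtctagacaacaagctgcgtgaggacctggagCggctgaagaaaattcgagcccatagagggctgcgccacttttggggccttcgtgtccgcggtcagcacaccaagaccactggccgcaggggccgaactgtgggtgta
Rps18-ps3: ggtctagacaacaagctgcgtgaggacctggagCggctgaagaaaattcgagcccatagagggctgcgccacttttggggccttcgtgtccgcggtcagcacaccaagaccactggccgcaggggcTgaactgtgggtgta
Rps18-ps1: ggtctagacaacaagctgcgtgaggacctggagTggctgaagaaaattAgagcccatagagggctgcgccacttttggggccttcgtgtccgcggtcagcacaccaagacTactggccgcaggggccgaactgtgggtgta
Rps18: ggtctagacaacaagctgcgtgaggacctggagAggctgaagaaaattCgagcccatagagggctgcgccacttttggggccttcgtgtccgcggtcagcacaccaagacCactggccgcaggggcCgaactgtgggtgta

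Rps27a-ps3 (chr6:122433899-122433988, plus strand) differs from Rps27a in 1 base of the coding sequence, which lies in this stretch (positions 37 to 126).
Rps27a-ps3: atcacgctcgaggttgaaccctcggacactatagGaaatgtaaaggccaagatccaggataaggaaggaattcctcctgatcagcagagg
Rps27a: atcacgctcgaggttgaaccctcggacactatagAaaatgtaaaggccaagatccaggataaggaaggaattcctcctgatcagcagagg

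Rpl28-ps1 (chr1:127966468-127966557, plus strand) is identical to Rpl28 along the whole coding sequence, so this pair, at positions 163 to 252, has no capitals.
Rpl28-ps1: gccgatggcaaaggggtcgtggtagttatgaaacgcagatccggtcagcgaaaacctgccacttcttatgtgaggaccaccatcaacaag
Rpl28: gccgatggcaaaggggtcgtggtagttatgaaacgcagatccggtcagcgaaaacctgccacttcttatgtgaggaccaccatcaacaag

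Rpl23a-ps5 (chr3:47185230-47185370, minus strand) is the one copy that passed the limits of the comparison below, and differs from Rpl23a in 30 aligned bases and by 1 gap. Positions 70 to 210 are shown.
Rpl23a-ps5: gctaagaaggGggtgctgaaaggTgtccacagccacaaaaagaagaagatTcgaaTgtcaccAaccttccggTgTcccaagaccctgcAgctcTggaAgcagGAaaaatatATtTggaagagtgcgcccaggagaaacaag
Rpl23a: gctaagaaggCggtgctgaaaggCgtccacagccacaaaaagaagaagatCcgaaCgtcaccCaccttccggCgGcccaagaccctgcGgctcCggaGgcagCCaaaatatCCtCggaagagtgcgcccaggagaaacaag

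The value of a pseudogene was highest among copies nearly identical to their parent. The 18 pseudogenes with a mean of at least 100 scaled TPM over the 6 samples had a median identity of 99.7% to the parent's coding sequence. The 33 with a mean of 1 to under 100 scaled TPM had a median of 98.7%, and the 99 with a mean under 1 had a median of 96.6%. Among the 43 copies with an identity of at least 99%, 16 reached a mean of 100 scaled TPM, against 2 of the other 107. Identity was taken over the aligned part only, which for Rpl13-ps1, counted among the 43, was 10 bases. Across the 150 pseudogenes, which share parents and libraries, Spearman's rho of the mean with identity was 0.48. With transcript length it was −0.14.

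Whether a copy can be told apart was read from words of 31 bases, the default word length of kallisto, with which the authors quantified transcripts. In 36 of the 150 pseudogenes no such word was absent from all other annotated transcripts, and these included 11 of the 18 with a mean of at least 100 scaled TPM. The other transcripts include those of genes that overlap a copy at its own site, on either strand. A word shared only with such a gene therefore counts as shared. None of the words of Rpl26-ps6, which overlaps an exon of Oaf, were its own, although 0% were in its parent. The median share of words found in no other gene was 0% in those 18, 16.8% in the middle group and 35.2% in the group under 1. Spearman's rho of this share with the mean was −0.35 over the 150. The parent's reading frame was open in 78 of the 150, and in 16 of the 18 highest. The part that shared sequence has in the values was not tested.

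Copies whose parent was not in the table had a median of the mean of 1.55 scaled TPM, and those whose parent was in the table had one of 0.403. Among copies with at least 99% identity, the median of the mean was 334 scaled TPM for the 20 whose parent was not in the table, and 2.16 scaled TPM for the 23 whose parent was. With the 3 Rpl35a copies of equal values counted once, the former were 18 with a median of 213 scaled TPM. Of the 18 with a mean of at least 100 scaled TPM, 14 had a parent that was not in the table. The closest protein-coding gene by sequence was the parent of the symbol in 130 pseudogenes and another gene in 5, and 15 had none within the limits used.

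**Figure D1:**
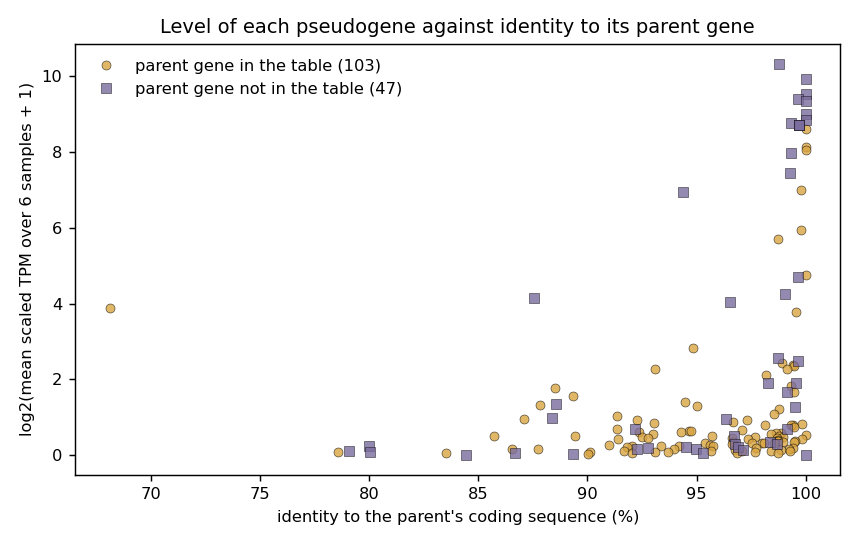
Level of each of the 150 pseudogenes against its identity to the parent gene. The horizontal axis is the identity to the parent's coding sequence in percent, the vertical axis is log2(mean scaled TPM over 6 samples + 1), and each point is 1 pseudogene, as a circle (103) where the parent is in the table and a square (47) where it is not. The high points gather at the right edge, where 16 of the 43 copies with at least 99% identity reach a mean of 100 scaled TPM.

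The values were held by few copies. The 18 with a mean of at least 100 scaled TPM made up 96.2% of the summed value of the 150, and the median of the 150 means was 0.456 scaled TPM. Of the 150, 41 were above 0 in 1 sample only and 23 in all 6. Just inside the rule stood Rpl10-ps1 with a mean of 2.9e-08 scaled TPM, and just outside it the 60 copies listed at 0.

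Summed over the 150, the scaled TPM was 13065, 6648 and 12754 in untreated 1, 2 and 3, and 8998, 4285 and 7914 in LPS 1, 2 and 3. The groups overlapped, because untreated 2 stood below 2 of the LPS samples, and within each group sample 2 was the lowest. LPS 2 was the lowest LPS sample for all 18 copies with a mean of at least 100 scaled TPM, and untreated 2 was the lowest untreated sample for 12 of the 18. The mean of the sums was 0.653 times as high after LPS, and 0.655 times as high without both samples numbered 2. The table's own sum was lower after LPS too, at 404675 to 465904 against 603599 to 713384 untreated. The ratio is therefore not particular to the 150. As a share of the table's own sum the 150 took 1.83%, 1.01% and 2.11% in the untreated samples and 2.21%, 0.920% and 1.96% in the LPS samples.

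Within that sum the groups parted. Copies whose parent was not in the table held 87.2% to 92.4% of it per untreated sample and 77.8% to 78.6% per LPS sample. Copies whose parent was in the table thus took a larger share in every LPS sample than in any untreated sample, and 4 of them, Rps16-ps2, Rpl28-ps1, Rps6-ps4 and Rps27a-ps3, had a mean of at least 100 scaled TPM. These shares are over members chosen by their values and were not tested.

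**Figure D2:**
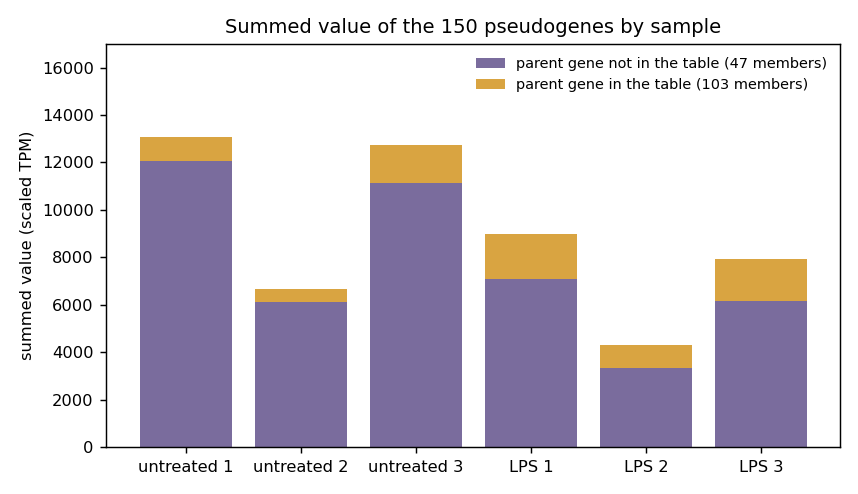
Summed value of the 150 pseudogenes in each sample. Bars start at 0 and give the sum in scaled TPM, split by whether the parent gene is in the table. The sum runs from 4285 in LPS 2 to 13065 in untreated 1, and the upper part of the bar, copies with the parent in the table, is a larger share of the bar in the 3 LPS samples than in the untreated ones.

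The comparison of LPS with untreated asked which of these copies differed between the groups. In a limma fit over all 23049 genes above 0, a gene was called where p before adjustment was under 0.01 and its log2 fold change exceeded 2 in either direction. By these limits 0 of the 150 pseudogenes were higher and 1 was lower after LPS, beside 1.69% higher and 1.31% lower among all genes tested (389 and 301 genes). Scaled to protein-coding genes instead, 0 and 5 of the 150 and 220 and 522 of all genes were called. With p under 0.05 before adjustment, 7 were higher and 11 lower, beside 10.3% and 6.66% of all genes, and voom, another fit, called 8 of the 150 and 1552 of all genes higher by the main limits. At an adjusted p under 0.05, 1 was higher and 1 lower, beside 0.894% and 0.946%. The median log2 fold change of the 150 was −0.03, against 0.01 over all genes.

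Groups that did not overlap were also no more frequent among the 150 by count. All 3 LPS samples stood above all 3 untreated samples in 7 pseudogenes and below them in 10, where the background over all genes was 13.1% and 9.75%. The 18 copies with a mean of at least 100 scaled TPM split into 7 with a positive and 11 with a negative log2 fold change (median −0.38). Of the 33 with a mean of 1 to under 100 scaled TPM, 8 were positive and 25 negative (median −0.91). The 99 with a mean under 1 scaled TPM had 57 positive and 42 negative (median 0.10). Over all genes tested, 12200 were positive and 10849 negative. These signs are partly fixed by the rule, since the 51 copies above 0 in LPS samples only must be positive. Likewise, the 17 above 0 in untreated samples only must be negative. The 82 copies above 0 in both groups had 21 positive and 61 negative (median −0.26), and no such count was made over all genes. This set was chosen by the same values and holds 3 Rpl35a copies of equal values as 3, so no direction is drawn from it.

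**Figure D3:**
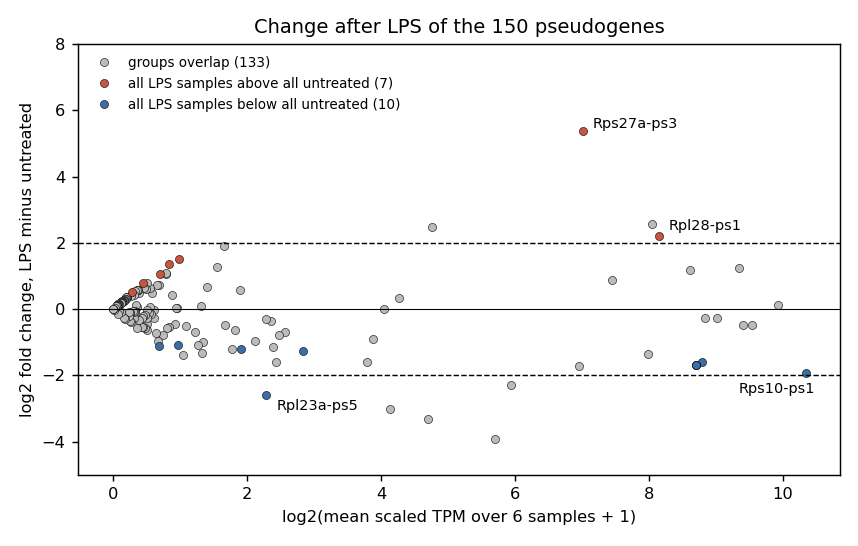
Change after LPS of the 150 pseudogenes against their level. The horizontal axis is log2(mean scaled TPM over 6 samples + 1), the vertical axis is the log2 fold change of LPS minus untreated on the log2(scaled TPM + 1) scale, and dashed lines mark the limits of 2. Filled colours mark the 7 copies with all LPS samples above and the 10 with all below the untreated samples, and grey the 133 whose groups overlap.

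Rpl23a-ps5 on chromosome 3 passed the limits. It was at 5.79, 8.93 and 7.25 scaled TPM untreated and at 0.296, 0 and 0.988 after LPS, so the groups did not overlap. It fell by 2.58 on the log2(scaled TPM + 1) scale (SE 0.378, adjusted p = 0.0376, limma). The call held in every leave-one-out fit and was lost with a pseudocount of 5, while the adjusted p ran from 0.0092 to 0.13 over the alternatives. Of its 31-base words 67.4% are in no other gene, and the parent's frame is interrupted by 1 frameshift. Its parent Rpl23a, a protein beside the exit of the peptide tunnel, was at 1512, 445 and 1295 scaled TPM untreated and at 419, 184 and 392 after LPS. All 3 LPS samples of the parent stood below the untreated ones, with a log2 fold change of −1.61 (SE 0.594, adjusted p = 0.24) that did not pass the limits.

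The copies with the highest means come from small-subunit and large-subunit genes alike. Among the small-subunit copies, Rps10-ps1 stood at 3105, 895 and 2273 scaled TPM untreated and at 585, 336 and 571 after LPS. Every LPS sample was below every untreated sample, but untreated 2 lay much nearer to the LPS samples than the other two. The log2 fold change was −1.94 (SE 0.541, adjusted p = 0.14), just short of the limits, and without untreated 2 it was −2.46 and passed them. It took 23.8%, 13.5% and 17.8% of the summed value of the 150 in the untreated samples, and 6.50%, 7.84% and 7.21% in the LPS samples. Of its 31-base words 95.5% are its own among the genes of the table, but only 31.4% are when all annotated transcripts are counted.

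Rps23-ps1 is a copy of the gene for a protein of the decoding centre, and has no word of its own. It stood at 895, 964 and 883 scaled TPM untreated and at 1347, 643 and 1110 after LPS. The untreated samples lay close together, within the range of the LPS samples, and the log2 fold change was 0.11 (SE 0.354, adjusted p = 0.88). Its direction turned in the fit scaled to protein-coding genes (−0.39) and without LPS 1 (−0.11).

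The Rps18 copies, from a gene for a protein in the head of the small subunit, were described together. Rps18-ps5 stood at 1039, 378 and 563 scaled TPM untreated and at 286, 110 and 260 after LPS. Rps18-ps3, named after its values were seen, stood at 506, 149 and 431 untreated and at 190, 58.6 and 176 after LPS. Rps18-ps1, also named after its values were seen, was far lower at 5.31, 1.97 and 5.61 untreated and 1.71, 0.671 and 1.17 after LPS. The groups overlapped in Rps18-ps3 and did not in the other two, and no copy passed the limits, with log2 fold changes of −1.58, −1.34 and −1.22. Rps18-ps3 carries an early stop in the parent's frame, while the other two keep it open.

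Of the large-subunit copies, Rpl35a-ps2, Rpl35a-ps4 and Rpl35a-ps6 come from Rpl35a, a gene mutated in some patients with Diamond-Blackfan anaemia. They had the same value in every sample, 831, 419 and 650 scaled TPM untreated and 266, 110 and 222 after LPS. These are 3 loci on 3 chromosomes with 1 transcript sequence and equal values, which the counts over the 150 hold as 3. Counted once, the 18 copies of the highest mean become 16 (7 positive and 9 negative), the 10 with all LPS samples below become 8, the 11 lower with p under 0.05 become 9, and the 5 called with scaling to protein-coding genes become 3. The 3 copies were named after their values were seen. Their LPS samples were all below the untreated ones, with a log2 fold change of −1.70 (SE 0.458, adjusted p = 0.13). They passed the limits only in the fit scaled to protein-coding genes, at −2.20.

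Rpl10-ps3, one of the copies annotated as protein coding, matches all of the coding sequence of Rpl10, whose protein joins the large subunit late in its assembly. It stood at 715, 970 and 911 scaled TPM untreated and at 665, 476 and 721 after LPS. The groups overlapped, and the log2 fold change was −0.49 (SE 0.301, adjusted p = 0.47). Rpl17-ps3 stood at 910, 393 and 1093 untreated and at 749, 332 and 577 after LPS, also with overlap (log2 fold change −0.48, SE 0.520, adjusted p = 0.62). Rpl17 encodes a protein that lines the peptide tunnel, and 6 of the 150 are copies of it, as many as of Rps12, Rps19 and Rpl21.

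The copies Rpl36a-ps2, Rpl10a-ps1 and Rpl15-ps3 are each identical to the parent's coding sequence and have no word of their own. Rpl36a-ps2, which lies in an intron of Ddah1 on the same strand, stood at 264, 47.7 and 1547 scaled TPM untreated and at 957, 404 and 678 after LPS. Its untreated samples spanned 32.4 times from lowest to highest, the widest among the 16 of the 18 copies that were above 0 in all untreated samples. Rpl10a-ps1, from the gene for the protein of the L1 stalk, overlaps an exon of Akr1cl on the same strand, and stood at 952, 183 and 626 untreated and at 559, 202 and 559 after LPS. Rpl15-ps3 stood at 621, 548 and 315 untreated and at 530, 221 and 511 after LPS. The groups overlapped in all 3 copies, with log2 fold changes of 1.24 (SE 1.23), −0.26 (SE 0.738) and −0.28 (SE 0.477).

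**Figure D4:**
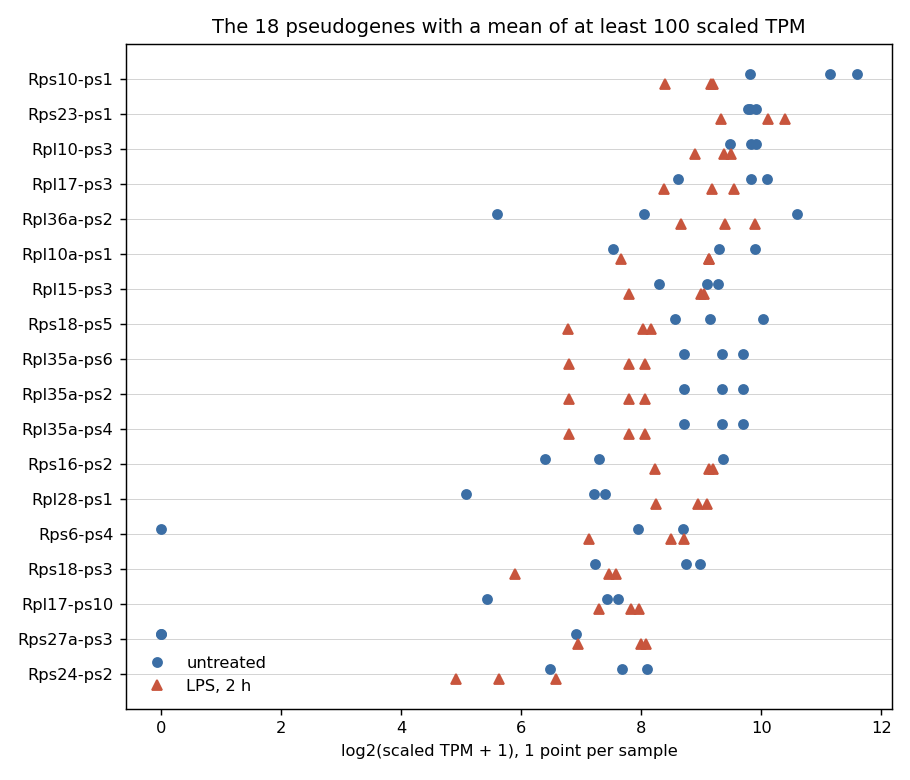
Values of the 18 pseudogenes with a mean of at least 100 scaled TPM. The horizontal axis is log2(scaled TPM + 1), each point is 1 sample, circles are untreated and triangles LPS, and the copies are ordered by their mean from the top. Rps10-ps1, Rps18-ps5 and the 3 Rpl35a copies have all triangles to the left of the circles, and Rpl28-ps1 and Rps27a-ps3 have them to the right.

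Of the 4 among these 18 whose parent was in the table, 2 had all LPS samples above all untreated samples, and both were named after their values were seen. Rpl28-ps1 lies in an intron of Zranb3 on the other strand, and stood at 148, 168 and 33.0 scaled TPM untreated and at 545, 302 and 494 after LPS. The log2 fold change was 2.19 (SE 0.683, adjusted p = 0.17, limma), past the fold limit and not the p limit. Its parent Rpl28, of the large subunit, stood at 176, 22.8 and 34.7 untreated and at 108, 69.0 and 96.3 after LPS, with overlapping groups and a log2 fold change of 0.77 (SE 0.771). The 2 coding sequences are identical, and the difference between the changes was not tested.

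Rps27a-ps3 was listed at 0, 0 and 119 scaled TPM untreated and stood at 270, 122 and 255 after LPS. Its lowest LPS sample was just above untreated 3, the only untreated sample with a value. The log2 fold change was 5.37 (SE 1.91, adjusted p = 0.23, limma), and 7.68 without untreated 3, where it passed the limits. The copy lies in an intron of Rimklb on the other strand and in an exon of the long non-coding RNA Gm68568 on the same strand. Rps27a, which encodes a ubiquitin fused to a small-subunit protein, stood at 165, 247 and 96.1 untreated and at 145, 80.3 and 129 after LPS (log2 fold change −0.46, SE 0.450). Rps27a-ps2, a further copy with 1 difference from the parent that was named after its values were seen, was at 361 in untreated 3 and at 2.04 or lower in the other 5 samples.

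Rps16-ps2 and Rps6-ps4, also named after their values were seen, are identical to the parent's coding sequence as well. Rps16-ps2 stood at 82.9, 156 and 655 scaled TPM untreated and at 589, 300 and 558 after LPS. Rps6-ps4, from the gene for the protein phosphorylated by S6 kinases, stood at 415, 0 and 246 untreated and at 418, 139 and 360 after LPS. In both the groups overlapped, since 1 or 2 untreated samples were as high as the LPS samples. The parent Rps16 stood at 175, 8.01 and 167 untreated and at 125, 63.3 and 117 after LPS, lowest in untreated 2, where its copy was lowest in untreated 1. Rps6 stood at 81.7, 112 and 148 untreated and at 233, 88.5 and 189 after LPS.

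**Figure D5:**
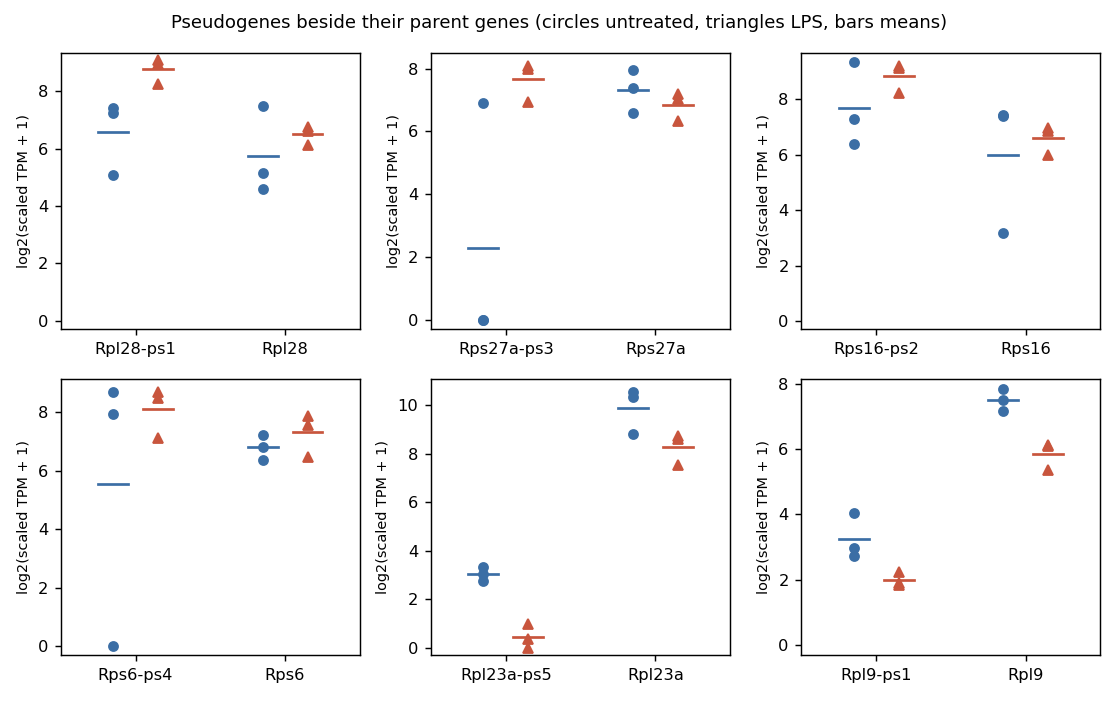
Pseudogenes beside their parent genes. In each panel the vertical axis is log2(scaled TPM + 1), circles are the 3 untreated and triangles the 3 LPS samples, and bars are the group means. The LPS triangles of Rpl28-ps1 and Rps27a-ps3 stand above the circles while those of the parents overlap with them, and for Rpl23a-ps5 and Rpl9-ps1 the triangles stand below the circles in both the copy and the parent. The level of a parent is an average over several transcripts and is not comparable with the level of its copy.

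Copies that their sequence sets apart had a median of the mean of 0.364 scaled TPM, against 0.570 in the others. Words shared with a gene that overlaps the copy at its own site again counted as shared. At least 50% of the 31-base words were in no other gene in 47 of the 150, and these held 1.87% of the summed value. Of them 10 had a mean of at least 1 scaled TPM, as had 41 of the other 103, and Rps24-ps2, from a small-subunit gene whose parent was not in the table, had the highest. It stood at 204, 88.5 and 272 scaled TPM untreated and at 95.2, 29.3 and 48.6 after LPS. Only LPS 1 lay above the lowest untreated sample, untreated 2, and the log2 fold change was −1.70 (SE 0.603, adjusted p = 0.23).

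Rpl9-ps1, the third highest of these 10, stood at 5.60, 15.6 and 6.81 scaled TPM untreated and at 2.72, 2.58 and 3.66 after LPS. The groups did not overlap, with a log2 fold change of −1.26 (SE 0.432, adjusted p = 0.21). Its parent Rpl9, of the large subunit, stood at 181, 144 and 229 untreated and at 68.2, 39.6 and 67.0 after LPS, again without overlap (log2 fold change −1.66, SE 0.352, adjusted p = 0.079). Both missed the fold limit. Rpl28-ps2, with an identity of 68.1% to Rpl28, stood at 19.1, 32.2 and 6.50 untreated and at 7.31, 9.57 and 7.61 after LPS, with overlap. These copies were named after their values were seen.

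Some copies were listed at 0 throughout 1 group. Values above 0 in LPS samples only were found in 51 pseudogenes (34.0%), and in untreated samples only in 17 (11.3%). Over all 23049 genes above 0 the shares were 14.5% and 7.43%. Of the 150, 99 had a mean under 1 scaled TPM. The shares over all genes are not matched for level, so no excess is drawn from them. Over the samples, 66, 54 and 69 of the 150 were above 0 in untreated 1, 2 and 3 and 98, 64 and 92 in LPS 1, 2 and 3. LPS 2 thus lay below untreated 1 and 3. Over the whole table, 15419 to 15800 genes per untreated sample and 16148 to 19191 per LPS sample were above 0, without overlap. How much of this difference lies in depth cannot be read from these values.

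Of the 51 listed at 0 in all untreated samples, Rps12-ps9 had the highest LPS mean, with 4.60, 0 and 8.37 scaled TPM. Rpl30-ps5 followed with 0.974, 3.00 and 1.94, and Rpl19-ps11 with 1.98, 1.41 and 1.30. The last pair belonged to the 5 copies (3.33%, against 2.18% of all genes) above 0 in all 3 LPS samples and in no untreated sample, beside Rpl30-ps1, Rpl31-ps11 and Rpl10-ps2, which were named after their values were seen. Rpl10-ps2 stood at 0.402, 0.417 and 0.502 scaled TPM after LPS and was the only copy higher at an adjusted p under 0.05 (0.0429, range over the alternatives 0.0048 to 0.18), on values under 1.

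Of the 17 listed at 0 in all LPS samples, Rpl36a-ps3 had the highest untreated mean, from 95.03, 4.60 and 0 scaled TPM. Rpl14-ps1 was at 26.4 and Rpl10-ps5 at 8.51 in untreated 2 alone. All 3 rest on 1 or 2 samples. Rpl10a-ps2 was the one copy above 0 in all untreated samples and in no LPS sample, at 1.62, 1.40 and 0.595 scaled TPM (adjusted p = 0.0973), and was named after its values were seen.

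The parents and the other ribosomal protein genes give the setting. By the limits, 2 of the 37 parents that the table holds were higher and 1 was lower. Rpl12, a protein at the base of the stalk of the large subunit, rose from 1.56, 1.82 and 1.98 scaled TPM to 26.5, 10.8 and 20.4 (log2 fold change 2.78, SE 0.394, adjusted p = 0.0351). Rps15a, of the small subunit, rose from 13.5, 6.16 and 31.01 to 142, 82.6 and 171 (log2 fold change 3.09, SE 0.616, adjusted p = 0.0697). Rpl31, near the exit of the peptide tunnel, fell from 606, 246 and 523 to 117, 53.1 and 102, or by 2.30 on the log2 scale (SE 0.492, adjusted p = 0.0801). Rpl12 kept its call whichever sample was left out. That of Rps15a was lost without untreated 1 (log2 fold change 3.07), LPS 1 (3.01) or LPS 3 (2.87), and that of Rpl31 without untreated 1 (−2.05), untreated 3 (−2.16), LPS 2 (−1.96) or LPS 3 (−2.43).

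None of the copies of these 3 parents passed the limits. The one copy of Rpl12, Rpl12-ps2, was at 0, 3.17 and 3.18 scaled TPM untreated and at 0 in all LPS samples, while the parent was higher after LPS. Rps15a-ps7, the highest of the 5 copies of Rps15a, was at 252, 0 and 50.9 untreated and at 2.90, 0 and 0 after LPS, again on the other side from its parent but with overlapping groups (log2 fold change −3.91, SE 2.01, adjusted p = 0.38). The highest of the 8 copies of Rpl31, Rpl31-ps9, was at 8.53, 0 and 6.41 untreated and at 6.21, 3.59 and 0 after LPS. These copies were named after their values were seen.

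Of 69 genes for cytosolic ribosomal proteins in the table, 3 were higher (Rpl12, Rps15a and Rps27l) and 1 was lower (Rpl31), and their median log2 fold change was 0.21, against −0.03 for the pseudogenes. Of 305 other pseudogenes with a -ps name that were tested, 2 were higher and 16 lower (median −0.04). Scaling to protein-coding genes moved the median of the parents from 0.21 to −0.29 and that of the pseudogenes from −0.03 to −0.15, so no direction is drawn from these medians.

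The labelled cell type was checked with lists of marker genes. The summed level of 12 neutrophil markers ran from 10489 to 30287 scaled TPM without and from 18180 to 57509 with LPS. That of 8 macrophage and monocyte markers ran from 180 to 283 and from 320 to 440. Markers of B cells ran from 142 to 542 and from 66.7 to 236, those of T cells from 10.8 to 14.8 and from 4.76 to 12.1, and those of eosinophils and mast cells from 6.59 to 41.4 and from 5.77 to 50.1. Erythroid markers ran from 21.5 to 5629 and from 165 to 4651, and mesothelial markers from 0.0422 to 0.553 and from 0.239 to 0.603. No listed marker in the table was at 0 in all samples, and the part of other cells in the values of the pseudogenes was not tested. Cgas itself was at 0.180 to 0.307 scaled TPM untreated and at 0.0286 to 0.184 after LPS, and with no wild-type sample these levels have nothing to be compared with.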

How the data were processed

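The members and gene lists were chosen with earlier results of these data known. The authors deposited 1 table of normalized values, named as counts but read here as TPM averaged over the transcripts of each gene and divided by 1 factor per sample. Per the labels, reads went through fastp, STAR and kallisto, with GRCm39 and mm10 named as builds. The methods name limma-voom for testing, and no annotation release. Single reads cannot be recovered from these values.

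All 23049 genes above 0 were tested on log2(scaled TPM + 1) with limma 3.58.1 in R 4.3.3 (lmFit, eBayes with a trend, two-sided), LPS against untreated, without covariates, and adjusted by Benjamini-Hochberg. Fold changes are on that scale and understate changes of low genes. The fit was tested on simulated data. Groups came from the sample titles. Parents were taken from the symbol. Copies were aligned locally to the parent's coding sequence (GENCODE M39, Biopython 1.88), with no minimum length. They were also searched with blastn 2.17.0 at 90% identity over at least 50% of their length. All 210 listed copies have 1 annotated transcript, parents have several.

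Named are the 8 copies with the highest mean over the 6 samples, called copies whose groups do not overlap, their parents, and the 3 highest listed at 0 in 1 group. Alternatives were pseudocounts of 0.1 and 5, a filter on the mean of 1, genes at 0 kept, other scalings, voom, no trend, a block, other limits and leaving out samples, of which leaving out both samples numbered 2 was added after seeing the data.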

Additional observations from a re-analysis of the deposited data

How the results depend on the processing

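The count of pseudogenes called higher was 0 and became 5 with a pseudocount of 0.1, 1 with quantile normalization, 8 with voom, 1 without both samples numbered 2, 1 at an adjusted p under 0.05 and 5 at p under 0.05 with a log2 fold change over 1. Over all genes tested, 389 became 856, 401, 1552, 421, 206 and 1533 in the same order. Leaving out 1 sample gave 0 to 2 pseudogenes, with Rps27a-ps3 and Rps13-ps2 without untreated 3 and Rps12-ps9 without LPS 2, beside 238 to 434 of all genes. The count of pseudogenes called lower was 1 and became 2 with a pseudocount of 0.1, 0 with a pseudocount of 5, 2 with centring, 5 with scaling to protein-coding genes, 2 without both samples numbered 2 and 11 with the wider limits. Over all genes tested, 301 became 493, 168, 352, 522, 334 and 1066 in the same order. Leaving out 1 sample gave 1 to 3 pseudogenes, with Rpl12-ps2 added without untreated 1, and Rps10-ps1 and Rps15a-ps7 without untreated 2, beside 241 to 375 of all genes. For the parents, 2 higher became 1 with a pseudocount of 5, 1 with scaling to protein-coding genes, 4 with voom, 1 at an adjusted p under 0.05 and 4 with the wider limits, and leaving out 1 sample gave 1 to 2. Their 1 lower became 2 with scaling to protein-coding genes, 0 with voom, 0 at an adjusted p under 0.05 and 7 with the wider limits, and leaving out 1 sample gave 0 to 2. In the settings not yet given for all genes, a pseudocount of 5 called 129 of them higher and scaling to protein-coding genes 220. Voom called 177 of them lower, and an adjusted p under 0.05 called 218 lower. Why the counts moved was not tested, apart from the limits, which are wider by construction.

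The ratio of the summed values stayed between 0.465 and 0.781, within the spread of the samples. Pairs of a result and an alternative numbered 524, for 31 of the named genes and the count of copies whose parent is in the table. Rps12-ps9, Rps15a-ps7 and Rpl12-ps2, which gained a call in some alternatives, were not among the 31. Of the 524 pairs, 480 kept both side and call, 11 lost and 19 gained the limits on the same side, and 14 reversed. Scaling to protein-coding genes turned Rps23-ps1 to −0.39, as did leaving out LPS 1 (−0.11). A pseudocount of 0.1 moved the median log2 fold change of all genes from 0.01 to 0.15 and voom to 0.67. Voom turned Rpl10-ps3 and Rpl17-ps3 to 0.14, Rpl10a-ps1 to 0.36, Rpl15-ps3 to 0.34 and Rps27a to 0.16. Rpl10a-ps1 also turned with quantile normalization (0.013), without untreated 1 (0.23) and without LPS 2 (0.22). Rpl15-ps3 turned without LPS 2 (0.13) and without both samples numbered 2 (0.23), as did Rps27a (0.12), and Rps6-ps4 without untreated 2 (−0.21). Over the fits that left out samples, the log2 fold change ran from −0.11 to 0.46 for Rps23-ps1, −0.95 to 0.23 for Rpl10a-ps1, −0.57 to 0.23 for Rpl15-ps3, −0.21 to 4.14 for Rps6-ps4 and −0.81 to 0.12 for Rps27a.

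The replicate block called 0 pseudogenes higher and 1 lower. The numbers are shared between the groups, and whether they pair the samples is unknown. The deviations of samples with the same number correlated at 0.094, 0.199 and 0.083 over all genes. Every sample correlated best with its own number there, a hint from the data alone. Over the 150 this did not hold, since untreated 3 correlated at 0.074 with LPS 1 and at 0.022 with LPS 3. The depth is unknown, so what it limits cannot be stated.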
